A study of Homo sapiens with 6 samples.

Results

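Radixin (RDX), ezrin (EZR) and moesin (MSN) are the ERM proteins, and NF2 and SLC9A3R1 are a relative and a partner of theirs. The 5 genes were taken by name from a deposited table of 17042 genes. RDX was picked because it was lower in the knockdown libraries, ranking 5 by p (both directions together) among 13405 genes tested. The other 4 were picked as its relatives. The differences of the 5 genes between the groups are therefore given as a description. No p-value is printed for them, beyond this rank and their calls in the fit over all genes.

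The 6 libraries were made from polyadenylated RNA of THP-1, an established line of human leukaemic monocytes. PMA, a phorbol ester, was given to all cells at 100 ng/mL over 24 hours to make macrophages of them, and IL-4, the cytokine of alternative activation, followed at 20 ng/mL over another 24 hours. The 3 knockdown libraries came from cells transfected with siRNA against RP11-184M15.1, a long noncoding RNA, before IL-4. The 3 control libraries are labelled as wild type, and the labels do not say whether they received a non-targeting siRNA. Nothing says that the replicates of a group were separate cultures, so the replicate spread behind each p-value may be technical only.

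ERM proteins tie the plasma membrane to the actin cortex. Their amino-terminal FERM domain binds the tails of membrane proteins and the lipid PIP2, and their carboxy-terminal tail binds actin filaments. The molecules are folded shut until PIP2 and phosphorylation of a conserved threonine in the tail open them, and in leukocytes they shape microvilli, uropods and the placing of adhesion receptors. NF2 encodes merlin, a FERM protein that acts upstream of the Hippo growth-control pathway. SLC9A3R1 encodes NHERF1 (also EBP50), a PDZ adaptor that holds channels and receptors to the FERM domain of ERM proteins.

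Because the ERM genes are close copies, the first question is whether reads can be told apart between them. In the longest annotated coding sequences (GENCODE 29), RDX was identical to MSN at 71.8% of aligned bases and to EZR at 70.6%, and EZR to MSN at 74.9%. RDX and NF2 reached 62.2%. The unrelated SLC9A3R1 reached 61.5% with RDX, 62.4% with MSN, 64.7% with EZR and 68.4% with NF2 in the same kind of alignment. These percentages alone therefore do not set relatives well apart from an unrelated gene. The lines below show bases 724 to 753 of the coding sequence, counted from the A of the start codon, where EZR and MSN are identical. Capitals mark the bases that are not the same in all 3 genes, and the other 25 of the 30 bases are shared.
RDX: tggagtgaaatcagAaaTatTtcAttTaat
EZR: tggagtgaaatcagGaaCatCtcTttCaat
MSN: tggagtgaaatcagGaaCatCtcTttCaat
Even here RDX was set apart by 5 bases. The annotated RDX transcripts held 8884 different words of 31 bases, and 0 of them occurred in EZR, MSN, NF2 or SLC9A3R1. The longest run RDX shared with EZR was 21 bases and with MSN 20 bases. EZR and MSN shared 4 words of 31 bases, and their longest shared run was 32 bases. The pseudogene MSNP1 held 415 of the 5938 words of MSN (6.99%) and has no row of its own among those analysed here.

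On GRCh38, RDX (ENSG00000137710.15) lies on chromosome 11 from 109864295 to 110296722 on the minus strand. EZR (ENSG00000092820.17) lies on chromosome 6 from 158765741 to 158819412, also on the minus strand. MSN (ENSG00000147065.16) is on chromosome X from 65588377 to 65741931, NF2 (ENSG00000186575.17) on chromosome 22 from 29603556 to 29698598 and SLC9A3R1 (ENSG00000109062.11) on chromosome 17 from 74748652 to 74769353, all on the plus strand. All 5 genes are annotated as protein-coding, and all passed the filter on low counts. Values are CPM, the counts of a gene per 1000000 counts of its library, with library totals scaled by TMM factors unless another unit is named.

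The libraries held from 10450043 to 14181343 counts. Of 12 macrophage markers, 11 were in the table, with CSF1R at 1731 CPM and CD68 at 1090 CPM, while the mannose receptor MRC1 stood at only 2.10 CPM and MARCO was not in the table. The summed macrophage markers ran from 5092 to 5381 CPM in the controls and from 5104 to 5304 CPM in the knockdown libraries. Within that near-equal sum 3 of the 11 passed edgeR's test, against 2.83% of all genes tested. The lysozyme gene LYZ fell (log2 fold change -0.40 ± 0.06, SE, adjusted p = 0.000928), while CD14, which binds lipopolysaccharide, rose by 0.34 ± 0.06 (adjusted p = 0.0030) and the haemoglobin scavenger receptor CD163 by 0.40 ± 0.08 (adjusted p = 0.0127). The call of CD163 was lost without control replicate 2 (adjusted p = 0.0796), knockdown replicate 1 (0.0535) or knockdown replicate 2 (0.119). The part of these markers in the results below was not tested. Of 7 markers of undifferentiated myeloid progenitors, 5 were in the table, and they summed to between 83.0 and 91.5 CPM in the controls and between 75.3 and 82.2 CPM in the knockdown libraries. Most of that sum came from AZU1, at 55.4 CPM on average, and 0 of the 5 were called. The sum lay lower in all 3 knockdown libraries than in any control, as did 10.4% of all genes tested. Its part in the results below was not tested. Of 8 lymphoid, epithelial, fibroblast and endothelial genes, CD3E, MS4A1, EPCAM and KRT19 were not in the table, the 2 collagens were under 2 CPM, and PECAM1, which monocytes also express, had 696 CPM. No row is named RP11-184M15.1, and the level of the target itself is not analysed here.

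Radixin had lower transcript levels in all 3 knockdown libraries. RDX stood at 129, 118 and 129 CPM in control replicates 1, 2 and 3 and at 81.5, 79.8 and 84.1 CPM in the knockdown libraries. The groups did not overlap, and the highest knockdown library was 34.2 CPM under the lowest control. The group means were 126 ± 6.31 CPM (SD, n = 3) and 81.8 ± 2.18 CPM (SD, n = 3), a log2 fold change of -0.62 ± 0.05 (SE) or a change of -34.8%. The raw counts behind these values were 1367, 1412 and 1343 in the controls and 1006, 1137 and 1024 in the knockdown libraries. In bulk RNA, less RNA per cell and fewer cells that express a gene cannot be told apart.

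Ezrin, the ERM protein best known from epithelial microvilli, was lower as well, by a smaller amount. EZR stood at 120, 116 and 110 CPM in the controls and at 92.8, 93.2 and 96.2 CPM in the knockdown libraries. The groups again lay apart, with 14.2 CPM between them. Means of 115 ± 4.66 and 94.1 ± 1.82 CPM (SD, n = 3 each) gave a log2 fold change of -0.30 ± 0.05 (SE), or a change of -18.5%. RDX counts per EZR count were 1.08, 1.02 and 1.17 in the controls and 0.878, 0.856 and 0.874 in the knockdown libraries, so RDX lay lower against EZR in each knockdown library than in any control.

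Moesin, the main ERM protein of leukocytes, was nearly level between the groups. MSN stood at 1242, 1279 and 1311 CPM in the controls and at 1278, 1275 and 1297 CPM in the knockdown libraries. All 3 knockdown values lay inside the range of the controls. The log2 fold change was 0.01 ± 0.04 (SE), from means of 1277 ± 34.6 and 1283 ± 11.6 CPM (SD, n = 3 each). Its sign turned without control replicate 1 (-0.01) and without knockdown replicate 3 (-0.00052), both far inside the SE.

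Merlin and the adaptor NHERF1 had overlapping groups. NF2 stood at 69.9, 71.5 and 72.9 CPM in the controls and at 67.4, 71.6 and 67.3 CPM in the knockdown libraries, a log2 fold change of -0.05 ± 0.05 (SE). Knockdown replicate 2 lay inside the control range and the other two just under it. SLC9A3R1 was the scarcest of the genes, at 10.1, 10.6 and 9.33 CPM in the controls and 11.1, 11.6 and 9.69 CPM in the knockdown libraries. It had the widest error, with a log2 fold change of 0.11 ± 0.11 (SE) on 97 to 165 counts per library. With 1 library left out it ran from 0.049 (without knockdown replicate 2) to 0.18 (without knockdown replicate 3), and that of NF2 from -0.085 to -0.037.

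**Figure D1:**
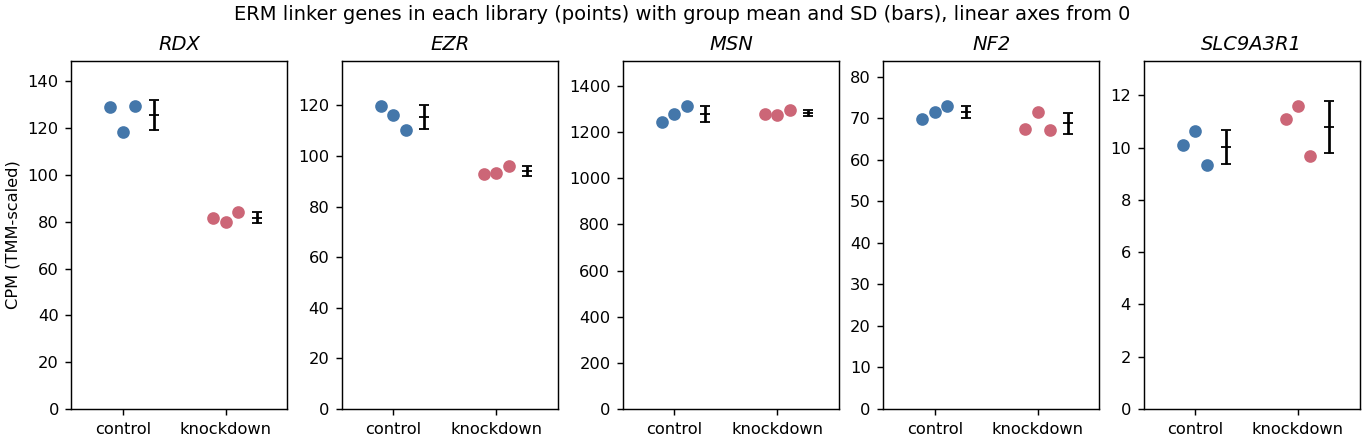
CPM (vertical axes, linear from 0) of the 5 genes in the 3 control libraries (blue) and the 3 knockdown libraries (red), with the mean and SD of each group beside the points. RDX (81.8 against 126 CPM) and EZR (94.1 against 115 CPM) have separate groups, and MSN, NF2 and SLC9A3R1 have overlapping ones.

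In the fit over all genes (edgeR quasi-likelihood, Benjamini-Hochberg adjusted p under 0.05), 2 of the 5 genes were called lower and 0 higher. Over all 13405 genes tested, 1.61% were called lower and 1.22% higher. The knockdown libraries lay entirely below the controls in the same 2 genes, RDX and EZR, against 10.4% of all genes. RDX was chosen from this contrast, so nothing is read from these counts. The median log2 fold change of all tested genes was -0.0019 and the median absolute value was 0.094.

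Only 1 gene with a row in the table overlaps RDX, the RNase gene ZC3H12C on the opposite strand (ENSG00000149289.10, chromosome 11, 110093361 to 110171841). The sources used here do not say whether strand was used in counting. ZC3H12C stood at 75.0, 70.9 and 67.7 CPM in the controls and at 69.7, 68.4 and 71.6 CPM in the knockdown libraries, and its groups overlapped. Its log2 fold change was -0.03 ± 0.06 (SE; edgeR adjusted p = 0.871). RDX counts per ZC3H12C count went from 1.77 ± 0.125 in the controls to 1.17 ± 0.00409 in the knockdown libraries (SD, n = 3 each). The 4 other genes annotated within RDX are processed pseudogenes with no row in the table, and no row overlaps EZR, MSN, NF2 or SLC9A3R1.

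The ERM genes were then set against each other within each library, which removes the library's depth. Counts were divided by the length of the longest annotated protein-coding transcript (4500 bases for RDX, 3096 for EZR and 3944 for MSN), and each gene's share of the sum of the 3 was taken. RDX made up 7.51%, 6.77% and 7.24% of this sum in the controls and 4.87%, 4.78% and 4.94% in the knockdown libraries. EZR made up 10.1%, 9.67% and 8.99% in the controls and 8.06%, 8.11% and 8.21% in the knockdown libraries. Moesin, the remainder, went from 83.2% ± 0.750 to 87.0% ± 0.138 (SD, n = 3 each). The difference in the RDX share was -2.31 percentage points. It was -2.84 percentage points with the median length of the protein-coding transcripts and -2.67 percentage points on raw counts. Added up without regard to length, the 3 genes had 1518 ± 30.3 CPM in the controls and 1459 ± 15.5 CPM in the knockdown libraries (SD, n = 3 each), since MSN supplies most of the counts.

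**Figure D2:**
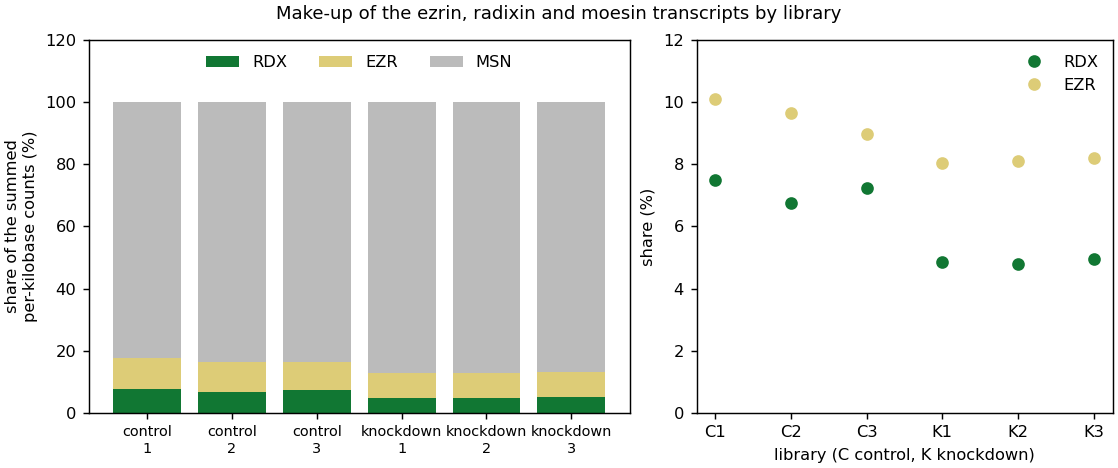
Share (%) of RDX, EZR and MSN in their summed counts per kilobase, stacked for each library on the left and drawn for RDX and EZR alone on the right (linear axes from 0). MSN holds 83.2% in the controls and 87.0% in the knockdown libraries on average, and both RDX and EZR have their 3 lowest shares in the knockdown libraries.

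Levels can be compared between genes only per length, here as CPM (without TMM factors) per kilobase of the longest protein-coding transcript. MSN came first at 324 ± 8.36 (SD over 6 libraries), 9.61 times EZR at 33.7 ± 3.49. RDX followed at 23.0 ± 5.15, NF2 at 11.6 ± 0.322 and SLC9A3R1 at 5.28 ± 0.454. No neighbours in this order had overlapping values over the 6 libraries, with EZR from 30.3 to 38.0 and RDX from 17.8 to 28.6. The order of EZR and RDX depended on the length used. With the median protein-coding transcript, 2162.5 bases for RDX against 3068 for EZR, RDX had 47.8 and EZR 34.1 CPM per kilobase on average. Their ranges then overlapped (37.1 to 59.4 for RDX and 30.5 to 38.4 for EZR), and so did those of EZR and NF2 (29.7 to 31.6). MSN was first and SLC9A3R1 last with both lengths. Which isoforms these cells use cannot be read from counts per gene.

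**Figure D3:**
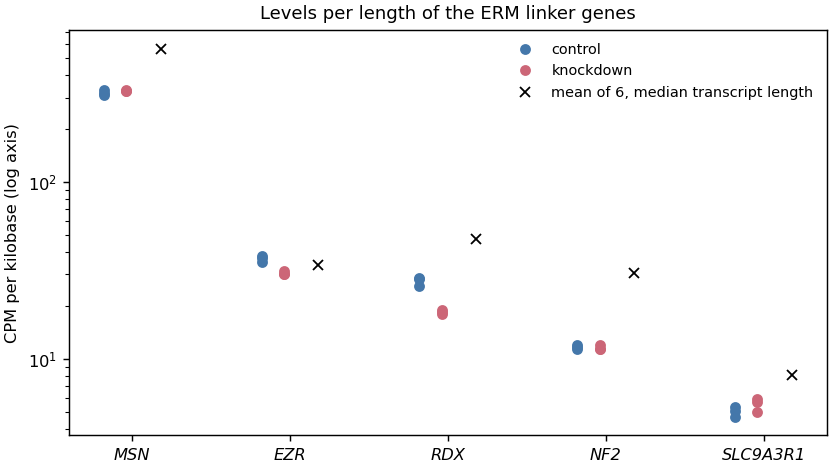
CPM per kilobase (log axis) of the 5 genes with the longest protein-coding transcript as length, in 3 control (blue) and 3 knockdown (red) libraries, with crosses for the mean of all 6 libraries at the median transcript length. MSN lies at 324 on average and SLC9A3R1 at 5.28, and EZR and RDX change places with the length used.

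Over 11909 genes whose log2 CPM averaged 1 or more, the 8 whose log2 CPM over the 6 libraries followed RDX most closely had Pearson correlations from 0.990 to 0.994. Among these were PPT1 (a lysosomal palmitoyl thioesterase), SLC25A30 (a mitochondrial carrier), the long intergenic RNA AC078850.1, MTHFD2 (an enzyme of mitochondrial folate metabolism), TSPAN7 (a tetraspanin), PRR13 and STX7 (an endosomal syntaxin). AC078850.1 had the smallest p of all genes tested and went from 174 ± 21.3 to 27.0 ± 2.04 CPM (SD, n = 3 each), and whether it is the targeted RNA under another name is not stated in the sources used here. All 8 lay lower in every knockdown library than in any control, as did 10.4% of all genes tested. These 8 were picked for following RDX over 6 points that share the division into groups. Their lying apart was therefore set by the choice, and nothing is read from it. The log2 fold changes of the 8 ran from -2.69 for AC078850.1 and -0.87 for MTHFD2 to -0.15 for PRR13. That of TSPAN7 was -0.15 ± 0.13 (SE). With each group's mean removed, the correlations with RDX ran from 0.54 for AC078850.1 to 0.86 for SLC25A30. EZR correlated with RDX at 0.96 over the 6 libraries but at 0.04 with the group means removed. These correlations are descriptions over 6 libraries.

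An earlier search of these same fold changes had picked out the word AGGATTA in 3′ UTRs of genes that were lower. RDX was among the genes searched, and EZR was also lower in these fold changes. The sites of RDX and EZR are therefore shown only to place them. Nothing is read from their presence, or from the lack of the word in MSN, NF2 and SLC9A3R1. In the longest annotated 3′ UTR of each gene, read on the transcript strand, the word (in capitals) stood at bases 1763 and 2142 of 2428 in RDX and at base 867 of 1173 in EZR.
RDX site 1: ctgactttaaaAGGATTAatctgggcaga
RDX site 2: atttgtagattAGGATTAaaatggattta
EZR site: cacgtgtaaacAGGATTAttattagtgtt
MSN (2038 bases), NF2 (3852 bases) and SLC9A3R1 (697 bases) held 0 copies. Of the 5120 genes in the table with a 3′ UTR of 1000 to 3000 bases, 11.0% held the word. NF2 and SLC9A3R1 lie outside that range of lengths. Over all 13476 genes with a 3′ UTR the share was 11.6%. The copies are matches of letters and were not tested as sites.

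Genes that regulate or bind the ERM proteins were described by 6 lists with 140 genes, of which 128 were in the table and 115 passed the filter. Most did not pass the test: 3 rose, 3 fell and 109 were not called (5.22% called, against 2.83% of all genes tested). At an unadjusted p under 0.05, edgeR had 6.89% of all tested genes higher and 8.21% lower. Leaving out control replicate 1 raised the number called to 13, and leaving out knockdown replicate 2 lowered it to 3. Over all genes tested these 2 fits called 542 of 13671 and 139 of 13613, against 379 of 13405 with all libraries. The number called in the lists thus moved in the same direction as that over all genes.

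Of 18 tested kinases and phosphatases of the ERM tail, 1 rose and 1 fell, with a median log2 fold change of 0.01. STK26 (MST4), a kinase of ezrin's tail threonine, stood at 29.7, 27.5 and 24.9 CPM in the controls and at 20.2, 19.1 and 19.8 CPM in the knockdown libraries. It fell, with a log2 fold change of -0.47 ± 0.09 (SE; edgeR adjusted p = 0.00554), although the adjusted p was 0.0548 without knockdown replicate 2. STK10 (LOK), the main ERM kinase of lymphocytes, stood at 302, 308 and 304 CPM in the controls and at 334, 356 and 342 CPM in the knockdown libraries. It rose by 0.18 ± 0.04 on the log2 scale (SE; edgeR adjusted p = 0.0387), but the adjusted p was 0.132 when control replicate 2 was left out, and 0.0945, 0.219 and 0.148 when knockdown replicate 1, 2 or 3 was. Its relative SLK, named after its value was seen, had 0.14 ± 0.06 and was not called (adjusted p = 0.226). The kinases ROCK1 (-0.01) and ROCK2 (-0.01), named after their values were seen, and GRK2 (0.03), at 246 CPM the second most abundant of the list, were near 0. The sign of GRK2 turned without control replicate 1 (-0.031).

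Of 17 membrane proteins whose tails bind ERM proteins, 1 fell and 0 rose in edgeR, where 3 higher and 2 lower had an unadjusted p under 0.05. Leaving out control replicate 1 gave 2 that fell and 1 that rose. In that fit 328 of all genes tested fell and 214 rose, against 216 and 163 with all libraries. SELPLG (PSGL-1, the selectin ligand carried on leukocyte microvilli) stood at 36.3, 39.9 and 39.4 CPM in the controls and at 28.4, 28.6 and 27.1 CPM in the knockdown libraries. It fell, with a log2 fold change of -0.46 ± 0.07 (SE; edgeR adjusted p = 0.00162), and was called in all 13 alternative fits. The most abundant of the list, MMP14 (a membrane-bound protease) at 2099 CPM, had 0.08 ± 0.04 (adjusted p = 0.420). ICAM1, an adhesion ligand, had 0.13 ± 0.04 (adjusted p = 0.123), and was called in DESeq2 alone (adjusted p = 0.0264). The hyaluronan receptor CD44 (0.04) and the sialomucin SPN (-0.03), named after their values were seen, were near 0.

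Of 8 tested NHERF family members and PDZ ligands, 1 rose and 0 fell in edgeR, with 2 higher and 3 lower at an unadjusted p under 0.05. DESeq2 called 0 of them and limma-voom 1. P2RY1, an ADP receptor whose tail binds NHERF proteins, went from 27.8 ± 0.766 to 33.9 ± 0.615 CPM (SD, n = 3 each), a log2 fold change of 0.29 ± 0.07 (SE; edgeR adjusted p = 0.0352). The adjusted p rose to 0.108 in DESeq2, to 0.144 and 0.0608 when control replicate 2 or 3 was left out, and to 0.0997, 0.154 and 0.134 when knockdown replicate 1, 2 or 3 was. CTNNB1 (beta-catenin), the most abundant of the list, had 0.03 ± 0.05 and was not called (adjusted p = 0.809), and its sign turned without control replicate 3 (-0.0087).

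Of 31 other FERM domain proteins, 1 rose and 0 fell in edgeR, DESeq2 and limma-voom, with a median of 0.03. At an unadjusted p under 0.05 edgeR had 3 higher and 1 lower. FARP2, a FERM protein that activates Rac-type GTPases, stood at 30.0, 31.7 and 35.7 CPM in the controls and at 45.7, 49.6 and 43.3 CPM in the knockdown libraries. It rose by 0.51 ± 0.08 on the log2 scale (SE; edgeR adjusted p = 0.00147) and was called in all 13 alternative fits. FARP2 overlaps STK25 on the opposite strand, which had a log2 fold change of 0.04 ± 0.07 (adjusted p = 0.830). The integrin activators TLN1 (talin; 0.10 ± 0.05, adjusted p = 0.391) and FERMT3 (kindlin-3; -0.02 ± 0.04, adjusted p = 0.889), the most abundant of the list, were not called, and the sign of FERMT3 turned without control replicate 2 (0.0039).

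Of 19 tested genes of the Hippo pathway, which lies downstream of NF2, 0 were called in edgeR, DESeq2 or limma-voom, and 1 higher and 3 lower had an unadjusted p under 0.05. Leaving out control replicate 1, where the genes that fell over all tested went from 216 to 328, gave 1 that fell. The median was -0.01, with MOB1A at -0.05 ± 0.05 and the kinase STK4 at -0.09 ± 0.04 (edgeR adjusted p = 0.694 and 0.311). The highest value of the list was 0.66 ± 0.24 for the coactivator YAP1, at 2.45 CPM in the controls and 3.87 CPM in the knockdown libraries (adjusted p = 0.186).

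Of 22 cortical actin linkers and bundlers, 1 fell and 0 rose in edgeR, with a median of 0.01, and DESeq2 called 1 higher. At an unadjusted p under 0.05 edgeR had 8.21% of all genes tested lower and 6.89% higher, and of these 22 it had 6 lower and 2 higher. Among these MYO1E was higher (0.15), named after its value was seen and not called (edgeR adjusted p = 0.0809). FSCN1 (-0.25, with overlapping groups), the actin cross-linker FLNA (-0.27) and the annexin A2 partner S100A10 (-0.29) were lower. They too were named after their values were seen and were not called (edgeR adjusted p = 0.0838, 0.0926 and 0.0966). The number that fell was 4 without control replicate 1, where 1 rose, and 2 without control replicate 3 or with the replicate number as a block. Over all genes tested 328, 306 and 288 fell in these 3 fits, against 216 in the main fit. MYO1G, a class I myosin of blood cells that links membrane and actin, stood at 46.2, 54.4 and 47.3 CPM in the controls and at 34.6, 32.8 and 37.3 CPM in the knockdown libraries. It fell, with a log2 fold change of -0.51 ± 0.08 (SE; edgeR adjusted p = 0.00144), and was called in all 13 alternative fits. ACTB (beta-actin) had -0.15 ± 0.05 (adjusted p = 0.141) and was called only without control replicate 1 (-0.21; adjusted p = 0.000897). The bundler LCP1 (L-plastin) had 0.03 ± 0.04 (adjusted p = 0.812).

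**Figure D4:**
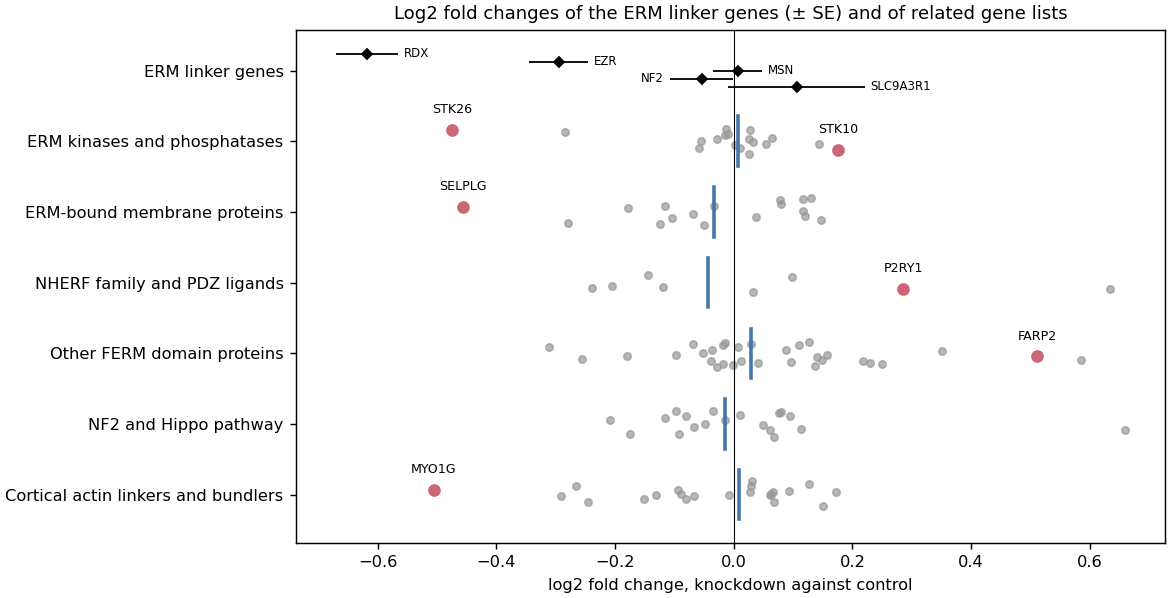
Log2 fold change (knockdown against control, horizontal axis) of the 5 ERM linker genes with SE (black diamonds) and of the tested genes of 6 related lists (points, spread vertically for legibility), with called genes in red and each list's median as a blue bar. List medians lie between -0.04 and 0.03, and RDX at -0.62 lies lower than any listed gene, the nearest being MYO1G at -0.51. RDX was chosen for its low value in this contrast, so nothing is read from that order.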

How the data were processed

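The authors deposited expected counts (estimated counts) by gene symbol, all of them whole numbers (100%), and no row sums to under 10. Salmon 0.11.2, DESeq2 and the build hg38 are named, without roles, per the submitters' processing notes. Rounding and strand use are not given in the sources. Libraries were grouped by their titles. Here the deposited counts went into edgeR 4.0.16 (quasi-likelihood test, two-sided, TMM factors, filterByExpr, only the group in the design, Benjamini-Hochberg adjusted p under 0.05) on 13405 genes. SE is the log2 fold change over the square root of F. Genes and lists were chosen with earlier results of these data known. Named in each list were the genes past the threshold (at most 6) and the 2 most abundant. GENCODE 29 on GRCh38 gave positions, lengths and sequences. Replicates differed by more than sampling noise (chi-square per df 2.79 to 6.79 between controls and 1.90 to 2.28 between knockdown libraries). The test was tried first on 5 simulated data sets with 200 changed genes each. It recovered 41.6% of changes of 1.25-fold, 65.2% of 1.5-fold and 84.4% of 2-fold, and 7.56% of its calls were false. A gene that was not called may therefore still differ. Alternatives were DESeq2 1.42.0, limma-voom 3.58.1, other normalizations and filters, a stricter threshold, the replicate block, leaving out each library and other transcript lengths. One of the planned lists and a few genes that the naming rule selects are not reported here.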

Additional observations from a re-analysis of the deposited data

How the results depend on the processing

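The log2 fold change of RDX ran from -0.66 to -0.59 with 1 library left out, and that of EZR from -0.32 to -0.27. In the 7 other fits (DESeq2, limma-voom, upper-quartile or RLE factors, 1 CPM required in 3 libraries, no filter at all and the replicate block) RDX lay between -0.62 and -0.61. The difference in the RDX share of the ERM genes ran from -2.51 to -2.15 percentage points with 1 library left out, and was -2.84 with the median transcript length and -2.67 on raw counts. The number of genes called depended on the libraries: 379 in all, 150 at an adjusted p under 0.01, and 139 (without knockdown replicate 2) to 542 (without control replicate 1) with 1 library left out, 55 to 214 of them higher and 84 to 328 lower. It was 165 without control replicate 2, and 194 and 156 without knockdown replicates 1 and 3. Over the related lists 3 to 13 genes were called with 1 library left out. The level per length with the median transcript was 567 for MSN, 47.8 for RDX, 30.5 for NF2 and 8.09 for SLC9A3R1. These levels come from the same counts and differ from those with the longest transcript only through the length. The cause of the other changes was not tested. With the replicate number as a block the RDX value was -0.62 and 488 genes were called, 7 of them in the related lists. Same-numbered libraries deviated together only weakly (correlations of 0.046, 0.10 and 0.083), and each library correlated best with its own number, which is a hint from the data and not from the design. The planned addition of pseudogene counts to their parent genes was not run, because no such pseudogene has a row. With 97 to 165 counts per library, depth limits SLC9A3R1 most.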
